A study of Canis lupus familiaris with 22 samples.

Results

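The WNT genes described here are the ligands, receptors, secreted antagonists and intracellular effectors of the WNT pathway. They were chosen by symbol alone, as every WNT, FZD, SFRP and DKK gene with a number of its own in the array's annotation plus LRP5, LRP6, WIF1, CTNNB1, APC, AXIN1, AXIN2, LEF1, TCF7, TCF7L1 and TCF7L2. This gave 45 of the 15115 genes measured, namely 17 ligands, 11 receptors, 9 antagonists and 8 effectors, and these 45 genes were reported by 79 probe sets. Of them, 24 genes had 1 probe set and 21 had 2 or more. No probe set named a WNT gene together with another gene.

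Affymetrix canine arrays were hybridised with RNA of 18 samples of invasive urothelial carcinoma (iUC), the common form of bladder cancer in dogs, and of 4 samples of normal bladder, 1 array to a sample and 5 µg of RNA each. The iUC samples were fresh biopsies of high grade tumours of pet dogs, taken through a cystoscope before any therapy, and the normal samples were fresh bladder tissue of healthy dogs of matched age with no tumour. All samples of a group were biological replicates. No sample was sorted or dissected, so each value is a mean over all cells of the tissue, and fewer cells of a type cannot be told apart from less RNA per cell.

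WNT proteins are secreted ligands that bind Frizzled (FZD) receptors together with the co-receptors LRP5 or LRP6. Without a ligand, a complex built on APC and the axins marks beta-catenin, the product of CTNNB1, for destruction, and with a ligand beta-catenin is spared and joins the DNA-binding factors LEF1, TCF7, TCF7L1 and TCF7L2 at target genes. Secreted frizzled-related proteins (SFRP) and WIF1 bind the ligands outside the cell, whereas DKK1 and DKK2 act on the co-receptors. In the mouse bladder, WNT signals from the stroma act on the basal urothelium during repair.

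A value is on the log2 scale and was centred by the authors on the median of its probe set over the 22 arrays. It is therefore a distance from the middle sample, holds no expression level, and cannot be set against the value of another gene. Probe sets of the same gene were averaged. A gene was called higher or lower in iUC at a limma adjusted p of 0.05 or below, taken over all 15115 genes, together with a fold change of 2 or more. Changes not called are given as values.

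The iUC arrays fell into sets by a measure that is not of the dog. The mean of the 17 Tag control probe sets, which report control sequences on the array, lay between 0.277 and 0.460 in 7 iUC arrays (replicates 3, 4, 5, 6, 7, 13 and 18), between -0.128 and 0.131 in the other 11 iUC arrays and between -0.215 and -0.0768 in normal bladder. These are called the high-Tag and the low-Tag iUC arrays below, and the changes of the called members are given for both. By clustering and principal components the study parted its iUC samples into groups of 11 and 7. The sample titles do not say which samples formed those groups. The mean over all probe sets moved with this signal, at -0.100 to -0.0681 in the high-Tag iUC arrays, 0.0701 to 0.0900 in the low-Tag iUC arrays and 0.0771 to 0.133 in normal bladder. The sample labels also end in different ways, with the iUC samples and normal bladder replicate 1 sharing an ending that normal bladder replicates 2 to 4 do not have. Normal bladder replicates 3 and 4 correlated at 0.934 over all probe sets, and the next pair of normal samples at 0.761.

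The values of marker genes of cell types differed between iUC and normal bladder as well. Of 12 fibroblast and matrix genes 10 were called lower in iUC, and the mean of this list ran from -0.90 to 0.96 in iUC and from 1.31 to 2.61 in normal bladder. Of 12 smooth muscle genes 10 were called lower, with a list mean of -0.66 to 1.48 in iUC and 3.02 to 4.82 in normal bladder. Of 18 measured urothelial genes 11 were called higher, with a list mean of -1.21 to 0.72 in iUC and -3.24 to -0.30 in normal bladder. Of 8 endothelial genes 3 were called lower, with a list mean of -0.66 to 1.45 in iUC and 0.39 to 1.52 in normal bladder. The smooth muscle and fibroblast lists were thus lower in every iUC sample than in any normal one, while the urothelial and endothelial lists overlapped. The urothelial list mean was -1.21 to -0.06 (median -0.21) in the high-Tag and -0.24 to 0.72 (median 0.37) in the low-Tag iUC arrays. The smooth muscle, fibroblast and endothelial lists overlapped between these sets as well. A list of 4 peripheral nerve genes did not, at 0.24 to 0.54 in the high-Tag and -0.19 to 0.12 in the low-Tag iUC arrays. The part of tissue make-up in the changes below was not tested.

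Among the 45 WNT genes, 1 was called higher in iUC, the receptor FZD6, and 3 were called lower, the antagonists DKK3, WIF1 and SFRP2. This is 2.22% called higher, against 3.68% of all genes, and 6.67% called lower, against 8.64% of all genes, so neither share was above that of all genes. The other 41 were not called. Taken singly, 3 of the 79 probe sets were called higher, against 3.9% of all probe sets, and 6 were called lower, against 10.7%. Without the fold change of 2, an adjusted p of 0.05 or below was reached by 8 WNT genes above 0 (17.8%, against 18.2% of all genes) and 5 below 0 (11.1%, against 17.5%). The median log2 change was 0.22 over the WNT genes and 0.08 over all genes, and 73.3% of the WNT genes lay above 0, against 56.7% of all genes. For the low-Tag iUC arrays alone the medians were close, at 0.07 over the WNT genes and 0.06 over all genes. For the high-Tag iUC arrays alone they were 0.31 and 0.05. Of the 45 WNT genes 34 were above 0 in the low-Tag and 30 in the high-Tag iUC arrays. The roles differed in where their members lay: 14 of 17 ligands, 7 of 11 receptors and 8 of 8 effectors were above 0, while 5 of 9 antagonists were below it. In the low-Tag iUC arrays the medians were 0.07 for ligands, 0.05 for receptors, -0.27 for antagonists and 0.19 for effectors. In the high-Tag iUC arrays they were 0.33, 0.09, -0.03 and 0.34.

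**Figure D1:**
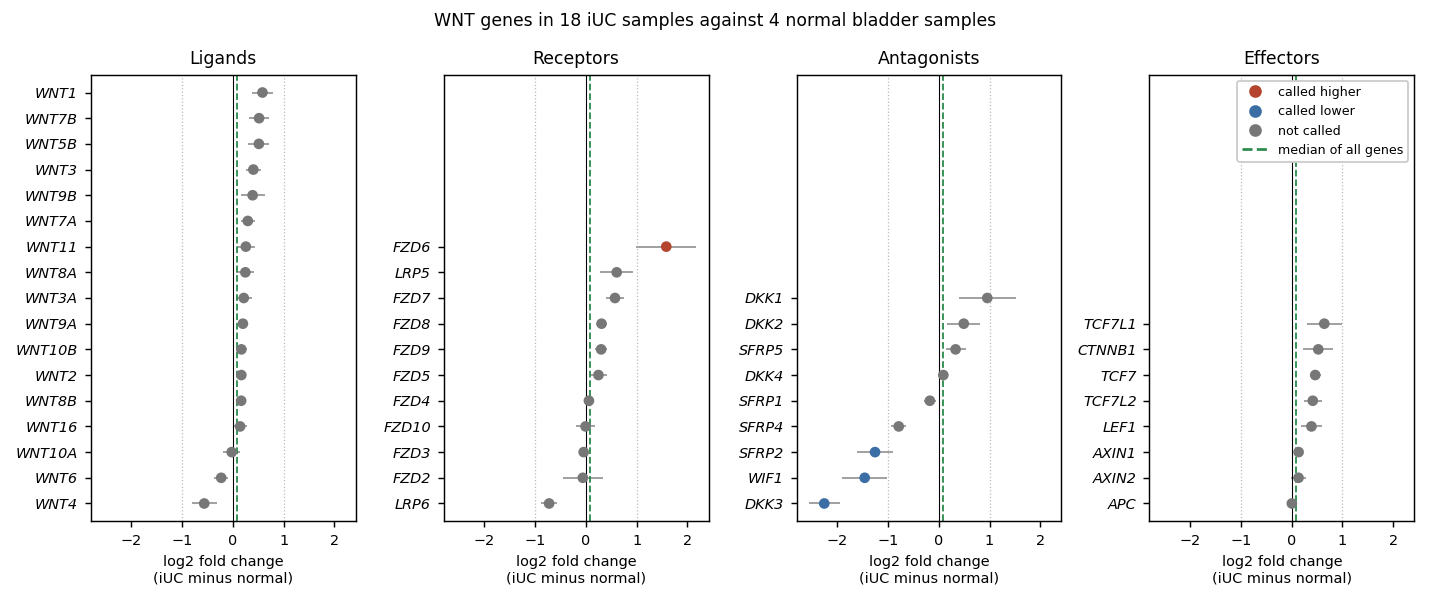
Log2 fold change (iUC minus normal) of each of the 45 WNT genes, by role. Points are limma estimates, bars are 1 standard error, dotted lines mark a fold change of 2, and the green dashed line is the median of all genes at 0.08. The antagonists reach farthest below 0, down to -2.25 for DKK3, FZD6 stands alone at 1.58, and the ligands stay between -0.56 and 0.58.

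The iUC values of several members parted by Tag set. In 8 WNT genes all 7 high-Tag iUC arrays lay above all 11 low-Tag iUC arrays, namely WNT1, WNT9B, WNT11, FZD5, FZD7, SFRP5, LEF1 and TCF7L1, and this is 17.8% of the WNT genes, against 15.9% of all genes. In FZD6 and CTNNB1 all high-Tag iUC arrays lay below all low-Tag ones, which is 4.44%, against 12.8% of all genes. TCF7L1, for example, lay at 0.79 to 1.38 in the high-Tag iUC arrays and -0.56 to 0.28 in the low-Tag iUC arrays. The 8 were 3 of 17 ligands, 2 of 11 receptors, 1 of 9 antagonists and 2 of 8 effectors.

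**Figure D2:**
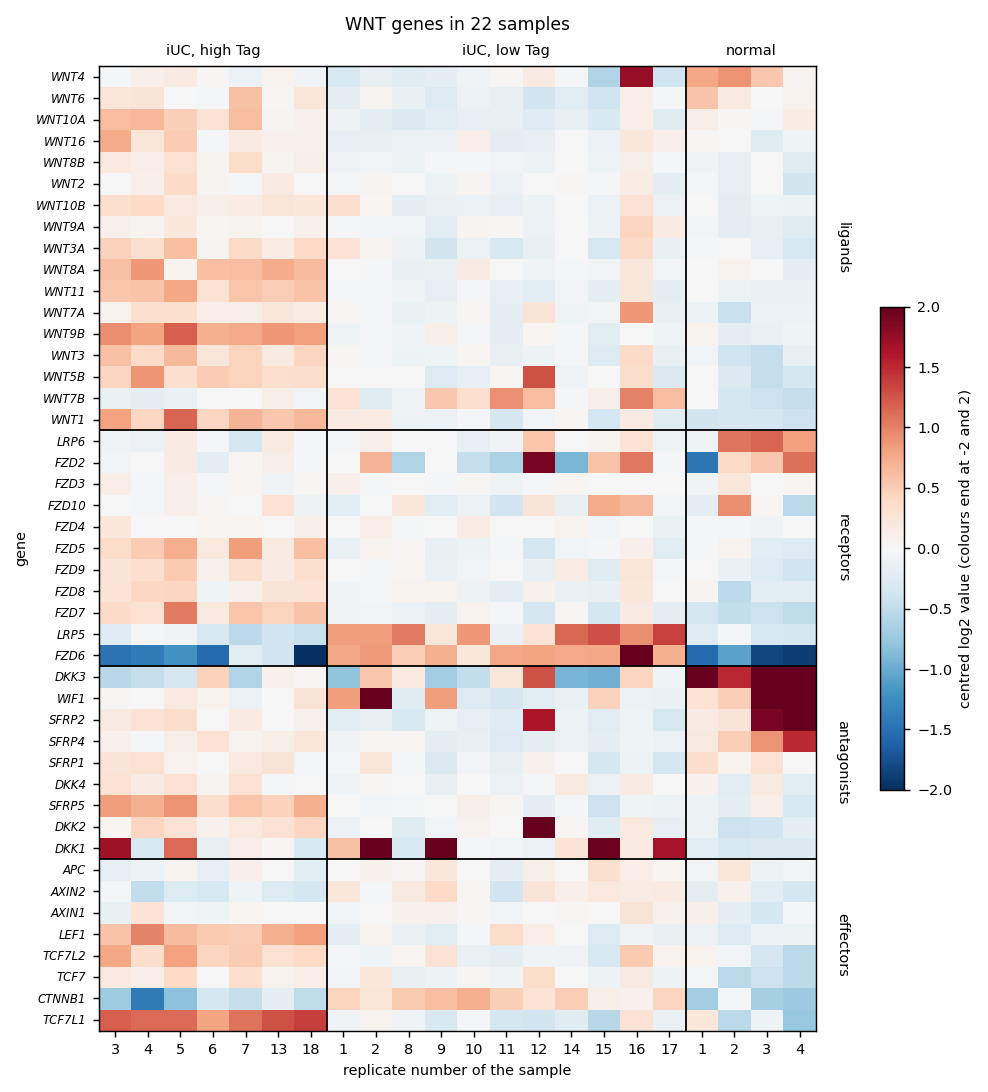
Centred log2 value of the 45 WNT genes (rows, by role) in 22 samples (columns), with the high-Tag iUC arrays left, the low-Tag iUC arrays in the middle and normal bladder right. Colours end at -2 and 2. DKK3 is dark red in all 4 normal samples, FZD6 is red in the low-Tag iUC arrays and blue elsewhere, and most other rows of the high-Tag block are pale red.

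Of the 17 ligands none was called in either direction, with changes between -0.56 and 0.58 and a median of 0.22. WNT1, the founding ligand of the family, had the highest change. Its values in iUC ran from a lowest of -0.36 over a median of 0.15 to a highest of 1.17, against -0.36, -0.34, -0.33 and -0.42 in normal bladder replicates 1 to 4. The normal samples lay within a narrow band, 16 of 18 iUC samples were above it, and the high-Tag iUC arrays held the top, from 0.42 to 1.17. The log2 change of WNT1 was 0.58 (SE 0.21, adjusted p = 0.0373), which passes the adjusted p but not the fold change. With any single normal sample left out, the adjusted p of WNT1 was 0.0654 to 0.103. Against all normal samples its change was 1.04 (SE 0.13, adjusted p = 4.85e-05) for the high-Tag iUC arrays and 0.30 (SE 0.10, adjusted p = 0.0290) for the low-Tag ones.

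WNT3 and WNT7B were the other ligands that passed the adjusted p alone, WNT3 at 0.40 (SE 0.15, adjusted p = 0.0403) and WNT7B at 0.52 (SE 0.20, adjusted p = 0.0450). WNT7B, a ligand made by epithelia in developing mouse organs, was the one of these whose upper values came from low-Tag iUC arrays, with 1.00 in replicate 16 and 0.91 in replicate 11. Its high-Tag iUC arrays all lay at 0.12 or below. In normal bladder WNT7B was at 0.01 in replicate 1 and at -0.36, -0.44 and -0.47 in replicates 2 to 4. With 1 normal sample left out, the adjusted p ran from 0.0324 to 0.152 for WNT3 and from 0.0324 to 0.139 for WNT7B.

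WNT4, which in mice is needed for the kidney and the female reproductive tract, had the lowest change of the ligands. It ran from -0.61 over a median of -0.06 to 1.74 in iUC, against 0.77, 0.89, 0.55 and 0.06 in normal bladder replicates 1 to 4. Of the iUC samples 13 lay below every normal sample and 1, replicate 16, lay above all of them. The change was -0.56 (SE 0.25, adjusted p = 0.0771) and was not called.

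Of the 11 receptors 1 was called, with changes between -0.72 and 1.58 and a median of 0.25. FZD6, a Frizzled receptor that in mice orients hair follicles through the planar polarity branch of the pathway, rose 3.00-fold in iUC, at a log2 change of 1.58 (SE 0.59, adjusted p = 0.0424). The low-Tag iUC arrays ran from 0.22 over a median of 0.77 to 2.08 and the high-Tag iUC arrays from -2.71 over a median of -1.40 to -0.23, against -1.56, -1.07, -1.82 and -1.90 in normal bladder replicates 1 to 4. All low-Tag iUC arrays were above every normal sample, whereas of the high-Tag iUC arrays 2 of 7 were, and the others lay within or below the normal range. The change was 2.40 (SE 0.24, adjusted p = 9.64e-06) in the 11 low-Tag iUC arrays and 0.31 (SE 0.40, adjusted p = 0.513) in the 7 high-Tag iUC arrays.

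Both probe sets of FZD6 parted the iUC arrays in the same way, and they differed in their change, with 2.21 (SE 0.65, adjusted p = 0.0129) for one and 0.96 (SE 0.56, adjusted p = 0.172) for the other. With any single normal sample left out, FZD6 was no longer called, at changes of 1.48 to 1.76 and adjusted p of 0.0592 to 0.123. It was the member with the largest spread among iUC samples, with an SD of 1.21 (n = 18), against a median SD of 0.33 over the WNT genes and 0.34 over all genes.

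**Figure D3:**
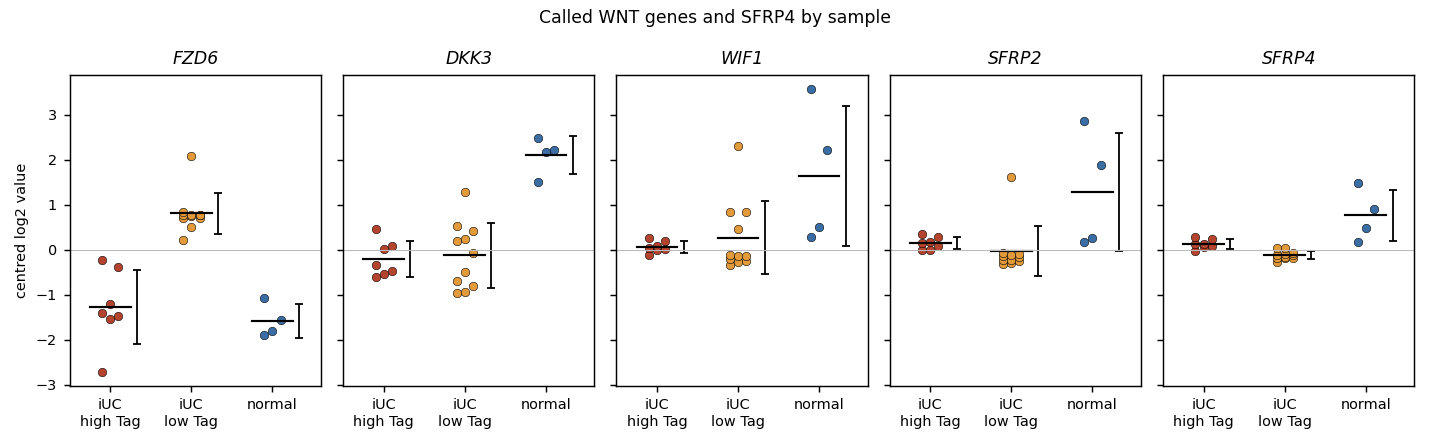
Centred log2 value of the 4 called WNT genes and of SFRP4 in each sample, with high-Tag iUC (7), low-Tag iUC (11) and normal bladder (4) from left to right. Horizontal lines are means and bars are 1 SD. FZD6 is above every normal sample in all 11 low-Tag and in 2 of 7 high-Tag iUC arrays, DKK3 is below normal bladder in every iUC sample, and for WIF1 and SFRP2 normal bladder splits into a low and a high pair.

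LRP5 and LRP6, the co-receptors that carry the signal next to a Frizzled receptor, had changes of opposite sign. LRP5 ran from -0.52 over a median of 0.26 to 1.37 in iUC, against -0.25, -0.02, -0.32 and -0.36 in normal bladder. Of the low-Tag iUC arrays 10 of 11 were above every normal sample, and of the high-Tag ones 0 of 7. The change of LRP5 was 0.61 (SE 0.33, adjusted p = 0.139) over all iUC samples, 1.03 (SE 0.23, adjusted p = 0.00373) for the low-Tag iUC arrays, where it was called, and -0.05 (SE 0.11, adjusted p = 0.685) for the high-Tag iUC arrays.

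LRP6 was the only receptor with a negative change that passed the adjusted p, at -0.72 (SE 0.15, adjusted p = 0.00132) and a fold change of 1.65, under the limit of 2. It ran from -0.34 over a median of -0.01 to 0.55 in iUC, against -0.08, 1.07, 1.16 and 0.82 in normal bladder replicates 1 to 4. Normal bladder replicate 1 lay among the iUC samples and the other normal samples lay above all of them. With the label ending as a block, which leaves replicate 1 to stand for normal bladder, the change of LRP6 was 0.10.

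FZD7, a receptor of intestinal stem cells in mice, passed the adjusted p at 0.58 (SE 0.18, adjusted p = 0.0189), and 17 of 18 iUC samples were above every normal sample. FZD8 and FZD9, further Frizzled receptors, passed it at 0.31 (SE 0.11, adjusted p = 0.0389) and 0.30 (SE 0.11, adjusted p = 0.0422). The probe sets of FZD8 went in opposite directions, at 0.79 (adjusted p = 0.00261) and -0.16 (adjusted p = 0.267). With 1 normal sample left out, the adjusted p reached 0.0660 for FZD7, 0.188 for FZD8 and 0.171 for FZD9. The change of FZD7 was 0.94 (SE 0.14) for the high-Tag iUC arrays and 0.34 (SE 0.09) for the low-Tag iUC arrays. FZD2 changed by -0.06 (SE 0.39, adjusted p = 0.916) and was widely spread, from -0.92 over a median of -0.01 to 1.90 in iUC and with -1.45, 0.39, 0.53 and 1.10 in normal bladder replicates 1 to 4. The remaining 4 receptors were not called.

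The 9 antagonists held all 3 WNT genes called lower. DKK3, a secreted member of the Dickkopf family that stands apart from the others and is made by many mesenchymal cells, fell by 2.25 on the log2 scale or 4.76-fold (SE 0.31, adjusted p = 1.25e-05), the largest fall of any member. It ran from -0.96 over a median of -0.21 to 1.28 in iUC, against 2.22, 1.5, 2.18 and 2.50 in normal bladder replicates 1 to 4. All 18 iUC samples lay below all 4 normal samples, which held for no other WNT gene and for 4.47% of all genes. No WNT gene had all iUC samples above all normal samples, which held for 3.22% of all genes. For DKK3 the exact two-sided permutation test over the 7315 ways to choose 4 of 22 samples gave p = 0.000137, the smallest it can give. The fall was alike for both sets, at -2.30 (SE 0.23) for the high-Tag and -2.22 (SE 0.36) for the low-Tag iUC arrays.

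The probe sets of DKK3 differed widely, with a change of -4.09 (SE 0.57, adjusted p = 1.60e-05) for one and -0.41 (SE 0.22, adjusted p = 0.133) for the other. DKK3 and SFRP2 were also among the genes the study selected on these samples, so their calls here are not independent evidence. DKK3 was called in each refit that set iUC against more than 1 normal sample, among them quantile normalization, at -1.55 (adjusted p = 0.00993). With the label ending as a block, which leaves replicate 1 to stand for normal bladder, the change was -2.37.

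Among the iUC samples DKK3 was set against the mean of the 12 fibroblast and matrix genes, a list that does not hold DKK3. Pearson's r was 0.93 over the 7 high-Tag iUC arrays (exact permutation p = 0.00417, Spearman's rho 0.86, exact permutation p = 0.0238) and 0.79 over the 11 low-Tag iUC arrays (permutation p = 0.00435, rho 0.79, permutation p = 0.00527). After Benjamini-Hochberg adjustment over the 24 relations computed, which set the 4 called WNT genes against 3 marker lists in both sets of arrays, the p for r was 0.0522 in each set, and that for rho 0.190 and 0.0632, so none passed 0.05. Without the 2 samples farthest from the median of the list, r was 0.84 in the high-Tag and 0.68 in the low-Tag iUC arrays, with adjusted p of 0.275 in both. The other called WNT genes did not share these values. With the same list, r in the high-Tag and low-Tag iUC arrays was -0.75 and 0.48 for SFRP2, 0.40 and 0.19 for WIF1, and -0.41 and -0.13 for FZD6.

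**Figure D4:**
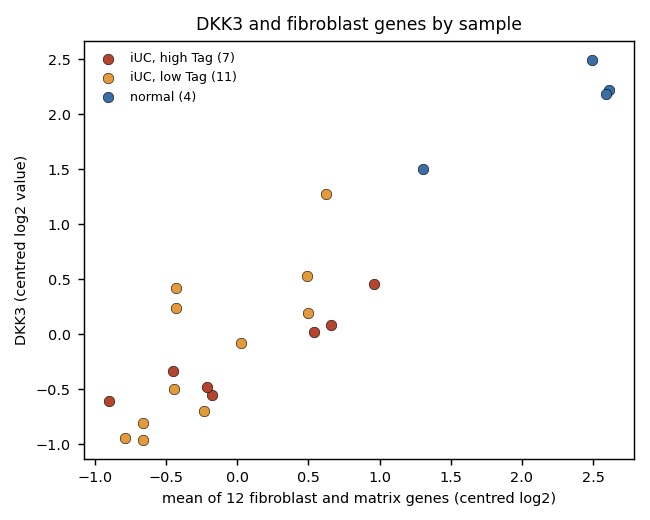
DKK3 (centred log2 value) against the mean of 12 fibroblast and matrix genes (centred log2) in each sample. Red points are the 7 high-Tag iUC arrays, orange the 11 low-Tag iUC arrays and blue the 4 normal samples. Within the sets r is 0.93 (high-Tag) and 0.79 (low-Tag), neither past 0.05 after adjustment, and normal bladder lies at the upper right on both axes, with a list mean of 1.31 to 2.61.

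WIF1, a secreted protein that binds WNT ligands, fell by 1.46 on the log2 scale or 2.74-fold (SE 0.44, adjusted p = 0.0154). It ran from -0.34 over a median of 0.00 to 2.30 in iUC, against 0.28, 0.50, 2.22 and 3.58 in normal bladder replicates 1 to 4. Normal bladder fell into a low pair and a high pair, and 14 of 18 iUC samples lay below both. The exceptions among the tumours were replicate 2 at 2.30, replicate 1 at 0.84, replicate 9 at 0.83 and replicate 15 at 0.46. The call rested on the high pair, since without normal bladder replicate 3 the change was -1.26 (adjusted p = 0.0789) and without replicate 4 it was -0.81 (adjusted p = 0.154). With the label ending as a block, which leaves replicate 1 of the low pair to stand for normal bladder, the change was -0.09. The 3 probe sets of WIF1 changed by -2.28, -1.36 and -0.73, and the last of these was not called (adjusted p = 0.171).

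SFRP2, a secreted frizzled-related protein made by mesenchymal cells, fell by 1.25 on the log2 scale or 2.38-fold (SE 0.35, adjusted p = 0.00870). It ran from -0.32 over a median of -0.08 to 1.63 in iUC, against 0.16, 0.25, 1.90 and 2.86 in normal bladder replicates 1 to 4. The normal samples fell into the same low and high pairs as for WIF1, and 14 of 18 iUC samples lay below both. Of the other tumours, replicate 3 lay within the low pair at 0.17. Replicates 4, 5 and 12 lay between the pairs, at 0.29, 0.35 and 1.63. The change was -1.14 (SE 0.43, adjusted p = 0.0364) in the high-Tag and -1.32 (SE 0.44, adjusted p = 0.0277) in the low-Tag iUC arrays. The call was lost without normal bladder replicate 3, at -1.05 (adjusted p = 0.0596), and without replicate 4, at -0.73 (adjusted p = 0.101). With the label ending as a block, which leaves replicate 1 to stand for normal bladder, the change of SFRP2 was -0.12. Of its 3 probe sets, 2 changed by -1.97 and -1.81 and the remaining one by 0.03.

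For both genes the 2 normal samples with the highest values were also those with the lowest urothelial list means, -1.89 in replicate 3 and -3.24 in replicate 4, against -0.66 in replicate 1 and -0.30 in replicate 2. The fibroblast list did not order them in this way, at 2.61, 1.31, 2.59 and 2.49 in replicates 1 to 4. The endothelial list showed the same low and high pairs, at 0.39, 0.41, 1.52 and 1.52 in replicates 1 to 4, and the smooth muscle list stood at 4.08, 3.02, 4.38 and 4.82. The part of tissue make-up in these values was not tested.

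SFRP4, a relative of SFRP2, passed the adjusted p but not the fold change, at -0.79 (SE 0.14, adjusted p = 0.000319) or 1.72-fold. It ran from -0.27 over a median of -0.05 to 0.28 in iUC, against 0.18, 0.49, 0.90 and 1.49 in normal bladder replicates 1 to 4, and 16 of 18 iUC samples were below every normal sample. Its 3 probe sets changed in the same direction, by -1.07, -0.65 and -0.63. Normal bladder replicates 3 and 4 were again the upper samples.

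DKK1, an inhibitor that binds the co-receptors and is itself a WNT target gene, had the highest change of the antagonists and was high in a few tumours. It ran from -0.32 over a median of 0.16 to 3.86 in iUC, against -0.21, -0.32, -0.28 and -0.30 in normal bladder replicates 1 to 4. The highest value was that of iUC replicate 9, and replicates 2, 15, 3, 17 and 5 followed at 2.00, 1.96, 1.70, 1.65 and 1.14. Of the 18 iUC samples 15 lay above every normal sample, 5 of 7 in the high-Tag and 10 of 11 in the low-Tag arrays, but most by little, and the change of 0.96 (SE 0.56, adjusted p = 0.172) was not called.

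DKK2, a further co-receptor inhibitor, changed by 0.49 (SE 0.33, adjusted p = 0.229), with iUC replicate 12 alone at 2.76 and the other iUC samples between -0.25 and 0.44. Normal bladder lay at -0.11, -0.41, -0.39 and -0.19. The same tumour had the highest iUC values of SFRP2 at 1.63, of DKK3 at 1.28 and of FZD2 at 1.90. Its fibroblast list mean of 0.63 was the highest of the low-Tag iUC arrays and its urothelial list mean of -0.24 the lowest of them. Its endothelial list mean of 1.45 was the highest of all iUC samples, with the next at 0.75, and lay within the normal range. The other antagonists were not high in this tumour and lay between -0.21, the value of WIF1, and 0.08. The ligand WNT5B, at 1.27, and the co-receptor LRP6, at 0.55, also had their highest iUC values in it. The tumour was picked out after its values had been seen.

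**Figure D5:**
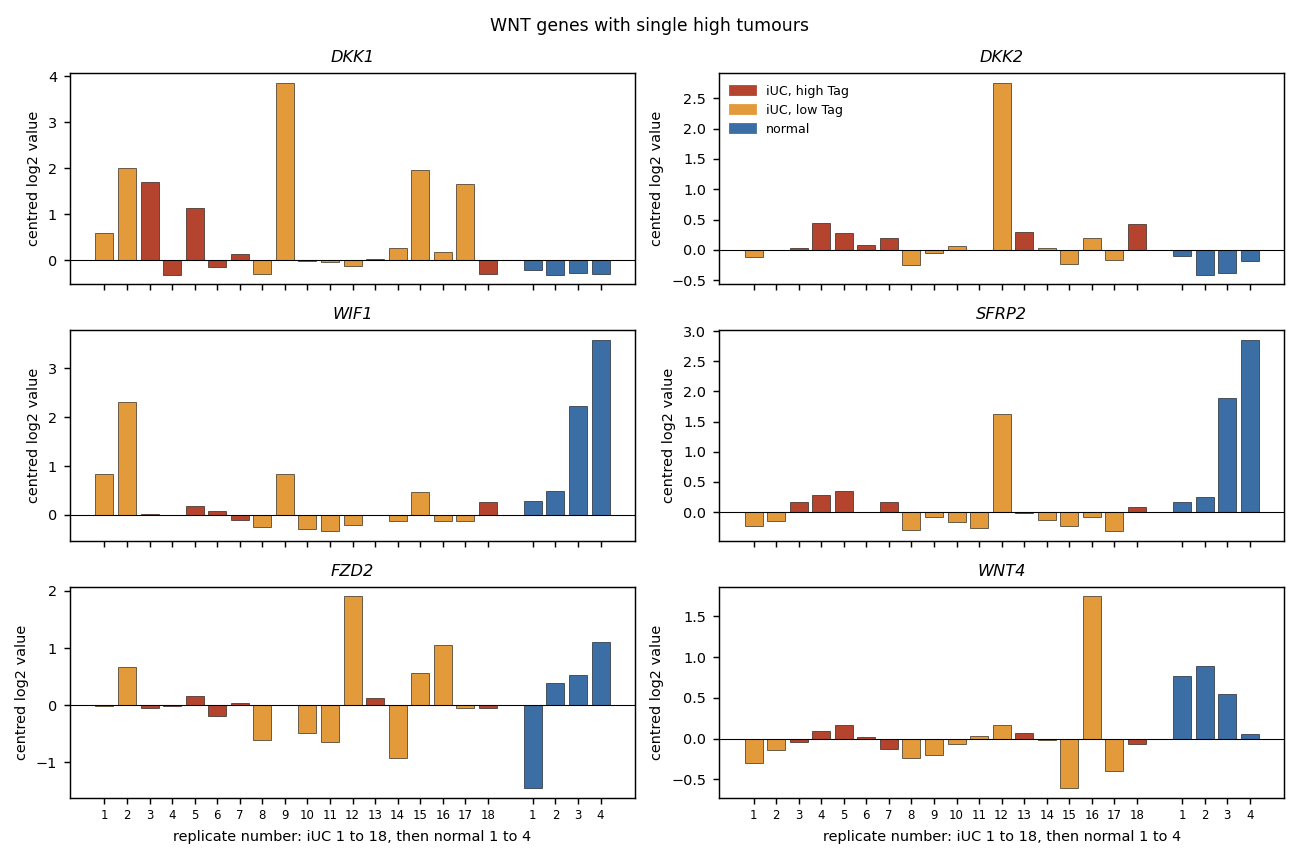
Centred log2 value of 6 WNT genes in each iUC sample (red for high-Tag, orange for low-Tag) and each normal sample (blue), as bars from 0. Each probe set was centred on its median at 0 before probe sets of a gene were averaged. DKK1 is high in several tumours and up to 3.86, DKK2, SFRP2 and FZD2 are highest of the tumours in replicate 12, and WNT4 has its highest value of 1.74 in replicate 16.

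None of the 8 effectors was called. Their changes lay between 0.00 and 0.64 with a median of 0.40, and all 8 were above 0. After quantile normalization all 8 were again above 0, and 7 of 8 were without normal bladder replicate 1, 3 or 4, with replicates 3 and 4 averaged, under either block and for the probe set of largest SD. In the high-Tag iUC arrays alone 5 of 8 were above 0. CTNNB1, the gene of beta-catenin, changed by 0.52 (SE 0.30, adjusted p = 0.164). It ran from 0.08 over a median of 0.44 to 0.71 in the low-Tag and from -1.41 over a median of -0.51 to -0.18 in the high-Tag iUC arrays, against -0.69, -0.02, -0.67 and -0.73 in normal bladder replicates 1 to 4. All low-Tag iUC arrays were above every normal sample, at a change of 0.93 (SE 0.14, adjusted p = 0.000177), while the high-Tag ones overlapped normal bladder, at -0.11 (SE 0.22, adjusted p = 0.680).

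APC, the scaffold of the destruction complex, changed by 0.00 (SE 0.09, adjusted p = 0.974). Its 5 probe sets went in different directions, between -0.82 (SE 0.29, adjusted p = 0.0342) and 0.41 (SE 0.24, adjusted p = 0.172), and none was called. AXIN2, a widely used target gene that feeds back on the pathway, was reported by 6 probe sets with changes from -0.18 to 0.38, and none of these was called. The study placed CTNNB1 and APC among P53 pathway genes and described both as differentially expressed in its canine tumours. Here neither gene was called over all iUC samples, nor was any of their probe sets. The study filtered probes by expression first, which centred values do not allow.

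Of the DNA-binding partners, TCF7 passed the adjusted p at 0.46 (SE 0.11, adjusted p = 0.00211), with 12 of 18 iUC samples above every normal sample. TCF7L1, which often acts as a repressor of target genes, had the highest change of the effectors at 0.64 (SE 0.35, adjusted p = 0.144). It was 1.44 (SE 0.17, adjusted p = 3.54e-05) for the high-Tag iUC arrays, where it was called, and 0.14 (SE 0.16, adjusted p = 0.539) for the low-Tag iUC arrays. TCF7L1 and TCF7L2 each had 1 probe set called higher, at 1.35 and 1.37, next to further probe sets at -0.06 for TCF7L1 and at 0.09 and -0.22 for TCF7L2, so gene means of 0.64 and 0.42 stand for probe sets that differ.

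Calls within each set of iUC arrays shared only part of their genes. Against the 4 normal samples, FZD6 and LRP5 were called higher in the low-Tag iUC arrays, where 5.23% of all genes were, and SFRP2 and DKK3 were called lower, where 5.96% were. WNT1 and TCF7L1 were called higher in the high-Tag iUC arrays, against 7.16% of all genes, and SFRP2, DKK3 and WIF1 lower, against 17.4%. DKK3 and SFRP2 were the members called in both sets. WIF1 changed by -1.58 (SE 0.51, adjusted p = 0.0177) in the high-Tag and by -1.37 (SE 0.56, adjusted p = 0.0665) in the low-Tag iUC arrays. These comparisons share their normal samples, the difference between the sets was not itself tested, and the Tag signal of normal bladder was nearer to that of the low-Tag iUC arrays.

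A further 63 measured genes of the pathway, listed by role, held 2 called higher, 4 called lower and 57 not called, with a median change of 0.15. This is 3.17% called higher, against 3.68% of all genes, and 6.35% called lower, against 8.64%. RSPO3, an R-spondin that raises WNT signalling by keeping Frizzled receptors at the cell surface, fell by 2.33 on the log2 scale or 5.03-fold (SE 0.24, adjusted p = 3.17e-07), the largest fall of the 63. It ran from -0.26 over a median of -0.06 to 0.25 in iUC, against 1.77, 1.31, 3.87 and 2.19 in normal bladder, with no overlap. Each set of iUC arrays showed it, at -2.22 in the high-Tag and -2.40 in the low-Tag iUC arrays.

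TLE1, a corepressor that binds TCF factors, fell by 1.24 (SE 0.25, adjusted p = 0.000818). It had 2 probe sets, and the one of largest SD changed by -2.61, so the gene mean stands for probe sets that differ. CCND1, the gene of cyclin D1 and a target gene in several tissues, fell by 1.61 (SE 0.51, adjusted p = 0.0180). DAAM1, a formin of the planar polarity branch, fell by 1.18 (SE 0.40, adjusted p = 0.0278). CCND1 and DAAM1 were called in the high-Tag iUC arrays, at -2.34 and -1.97, and not in the low-Tag ones, at -1.15 (adjusted p = 0.0708) and -0.67 (adjusted p = 0.0552). CCND1 was not called without normal bladder replicate 3, at -1.53 (adjusted p = 0.0674), or replicate 4, at -1.36 (adjusted p = 0.0927). DAAM1 was called only when replicate 1 was the one left out, with adjusted p of 0.0759 to 0.105 for the others.

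PYGO2, a chromatin-binding partner of beta-catenin, rose by 1.25 (SE 0.30, adjusted p = 0.00329), with 17 of 18 iUC samples above every normal sample. Its change was 1.92 for the high-Tag and 0.83 (adjusted p = 0.00229) for the low-Tag iUC arrays, where it missed the fold change of 2. SOX9, a factor of progenitor cells and a target gene, rose by 1.27 (SE 0.45, adjusted p = 0.0337), by 0.78 in the high-Tag and by 1.58 in the low-Tag iUC arrays. Without normal bladder replicate 2, 3 or 4 it was not called, at adjusted p of 0.0748 to 0.110. After quantile normalization DKK3, RSPO3 and PYGO2 were the genes still called of the 10 called WNT and other pathway genes. All of RSPO3, TLE1, CCND1, PYGO2 and SOX9 were among genes the study chose on these samples.

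WLS, which carries WNT ligands to the cell surface for release, and FRZB, a secreted decoy for WNT ligands, were called in the low-Tag iUC arrays but not over all iUC samples, and both were picked after their values had been seen. WLS changed by 0.68 (SE 0.30, adjusted p = 0.0784) over all iUC samples, by 0.05 (adjusted p = 0.816) in the high-Tag and by 1.08 (SE 0.17, adjusted p = 0.000379) in the low-Tag iUC arrays. The study, by its own processing, listed WLS among genes that differ between iUC and normal bladder. Here the mean of its 4 probe sets was not called over all iUC samples. Its probe set of largest SD was, at 1.63 (adjusted p = 0.00157), and so was the mean with array weights, at 1.07 (adjusted p = 0.000193). FRZB changed by 1.25 (SE 0.95, adjusted p = 0.297) over all iUC samples, by -0.16 (adjusted p = 0.912) in the high-Tag and by 2.14 (SE 0.48, adjusted p = 0.00342) in the low-Tag iUC arrays. In all 11 low-Tag iUC arrays WLS was above every normal sample, and in 0 of 7 high-Tag ones.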

How the data were processed

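GeneSpring GX was used by the authors, and the deposited table holds log2 values for 43035 probe sets, each centred on its median over the 22 arrays. The summary of probes and the scaling of arrays were steps not given in the sources used here, and centred values allow no filter on expression. After 111 control probe sets were left out, 42924 were analysed, of which 29254 had 1 gene symbol, 439 several and 13231 none in the platform annotation. The WNT genes, the other gene lists and the thresholds were chosen with earlier results of these data known. Groups came from the sample titles. All genes were fitted with limma 3.58.1 in R 4.3.3 (lmFit, eBayes, no covariates) with Benjamini-Hochberg adjustment, and the code was tested on simulated data. The iUC arrays were parted at the largest gap in their mean Tag signal. Correlations were tested by permutation, exactly below 10 samples and otherwise with 100000 resamples.

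Genes named with values are those called, those the study names, the highest and lowest change of each role not called, and members with probe sets called in opposite directions, of which there were 0. WNT3, WNT5B, WNT7B, FZD2, FZD7, FZD8, FZD9, TCF7, TCF7L2, DKK2, AXIN2, WLS and FRZB were named after their values were seen. The fits were repeated with array weights, quantile normalization, scaling to the 75th percentile, other summaries of probe sets, leaving out normal samples, joining normal bladder replicates 3 and 4, blocks for replicate number and label ending, the methods' t-test, and, chosen after seeing the data, the high-Tag iUC arrays alone. The number of arrays limits the precision.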

Additional observations from a re-analysis of the deposited data

Results flagged for a closer look

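Of 30 named genes checked in the 4 normal samples, 3 had a sample far from the rest, and chance flags about 1 in 20 groups. For CTNNB1 the gap to the nearest other sample was 0.914 of the whole range, for APC it was 0.879 and for WLS 0.872, each past Dixon's critical value. Normal bladder replicate 2 was the outlying sample each time, above the other normal samples. It had the lowest smooth muscle and fibroblast list means of the normal samples, at 3.02 and 1.31, and the highest urothelial list mean, at -0.30. Whether these go together was not tested. Without normal bladder replicate 2 none of the 3 genes was called.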

How the results depend on the processing

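Of the 10 called genes named, 117 of 170 alternative values kept direction and call, 53 lost the call and 0 reversed. Of the 20 others, 311 of 340 stayed uncalled in their direction, 10 became called and 19 reversed. Values below are counts called higher and then lower, for WNT genes (1 and 3), other pathway genes (2 and 4) and all genes (556 and 1306). Quantile normalization gave 0 and 1, 1 and 1, and 295 and 431. The probe set of largest SD gave 3 and 4, 4 and 8, and 935 and 2044. Leaving out 1 normal sample gave 0 and 1 to 3, 1 to 2 and 2 to 5, and 298 to 716 and 967 to 1495. Normal bladder replicates 3 and 4 averaged gave 0 and 1, 1 and 2, and 312 higher over all genes. The low-Tag iUC arrays alone gave 2 WNT genes higher and 2 other pathway genes lower, and the high-Tag iUC arrays alone gave 2 and 3, 4 and 11, and 1082 and 2623. Array weights gave 4 other pathway genes and 1065 of all genes higher. The label ending as a block gave 0 and 1, 0 and 1, and 15 and 389. The adjusted p alone gave 8 and 5, 9 and 11, and 2744 and 2646, and the methods' t-test with adjustment gave 0 WNT genes higher. Same-numbered iUC and normal samples did not deviate together, with correlations of -0.166 to 0.131, so the numbers pair nothing. In the replicate block only numbers 1 to 4 hold both iUC and normal samples, so the other iUC samples do not inform its changes. This block gave 0 and 1, 0 and 0, and 215 and 349, with APC at -0.054 and FZD2 at 0.0068. The median of all genes was 0.08, and 0.20 after scaling to the 75th percentile. Further reversals were those of APC for the probe set of largest SD (-0.82), without 1 normal sample (-0.030 to 0.081), with replicates 3 and 4 averaged (-0.024) and in high-Tag iUC arrays (-0.083). CTNNB1 reversed in the high-Tag iUC arrays at -0.11, LRP5 at -0.053 and FRZB at -0.16, and LRP6 with the label ending as a block at 0.10. FZD2 reversed after quantile normalization (0.069), 75th percentile scaling (0.060), averaging (0.17), the label ending as a block (1.54) and without 1 normal sample (-0.59 to 0.26). Without the 2 samples farthest from the median of the list, 5 of 24 correlations reversed: with the low-Tag iUC arrays, SFRP2 with fibroblast (-0.029) and urothelial genes (0.30) and FZD6 with urothelial genes (0.12), and with the high-Tag iUC arrays, FZD6 (0.66) and WIF1 (-0.69) with smooth muscle genes. Fits without some samples rest on fewer of them, and elsewhere the cause was not tested.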
